A study of Mus musculus with 141 samples.

Results

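Aminoacyl-tRNA synthetases join each amino acid to its transfer RNA, and so load every residue that a ribosome adds to a protein. The genes described here are 36 of the 46517 in the table, chosen by name: 20 that encode the cytosolic enzymes and 16, with symbols that end in the numeral of the mitochondrial form, that encode the enzymes imported into mitochondria. All 36 passed the filter on low values in every fit. RNA sequencing had been run on naive CD4 T cells (CD4+CD25-CD44lo, sorted from C57BL/6 mouse spleen and lymph nodes) before and during 72 h of stimulation by plate-bound antibodies against CD3 and CD28, which all cultured groups shared. The 141 libraries fell into 47 groups of 3. In courses 1 to 3, cells were cultured with IL6 and TGFb or with no cytokines, for 0.5 and 1 h, 2, 4 and 6 h, 12 and 24 h, or 48 and 72 h, and were set against naive cells at 0 h. In courses 4 to 6, the cocktails at the same 9 times were IL6, TGFb and IL1b; IL6, TGFb and IL21; and IL6, TGFb, IL1b and IL21. These courses had naive cells of their own and no culture free of cytokines, so that there activation and cytokines cannot be told apart. The labels call the libraries of a group biological replicates and do not give which mice or cultures they share, so p-values measure the spread between these libraries. The sources used here do not give the age of the mice.

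A cell that leaves quiescence has to build proteins at a far higher rate, and every residue passes through a synthetase. Several cytosolic enzymes sit together in a multi-synthetase complex on the scaffold proteins Aimp1, Aimp2 and Eef1e1, while the others work alone or as pairs. The mitochondrial enzymes are encoded in the nucleus and serve only the few respiratory chain subunits that mitochondria translate themselves. Some nuclear genes serve both compartments, as Kars (lysyl) and Gars (glycyl) do, and Eprs carries glutamyl and prolyl activity in the same chain. ATF4, a transcription factor made when uncharged transfer RNA or other stress slows initiation, is known to activate many cytosolic synthetase genes through C/EBP-ATF composite elements.

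Libraries held 16.1 to 35.0 M counted reads in courses 1 to 3 and 15.95 to 47.1 M in courses 4 to 6 (M, 1e+06 reads), so that 1 read was far below 1 CPM, a read per 1e+06 counted. Levels below are CPM after TMM scaling, a correction for differences in RNA composition, and are shares of the counted RNA: in bulk samples, fewer cells of a type and less RNA per cell cannot be told apart. The summed CD4 T cell markers (Cd3e, Cd4, Trac and Lck) ran from 1154 to 3978 CPM, against at most 40.6 CPM for CD8 T cells, 14.2 for B cells, 30.8 for myeloid cells, 40.7 for erythroid cells and 0.789 for NK cells, whose markers Ncr1 and Klrb1c were at or near 0. All 37 mitochondrially encoded genes (prefix mt-) were listed at 0 in every library. The course 1 libraries grown without cytokines stood apart at 48 and 72 h: over the genes tested, their log2 levels had a root mean square deviation from the group mean of 0.526 and 0.772, against 0.292 to 0.418 in courses 2 and 3 and 0.141 to 0.184 in the 3 libraries with IL6 and TGFb at 72 h. The counts of members in comparisons that rest on them are given with and without course 1. Each fit shares 1 estimate of spread per gene over all its groups. SE and p-values that rest on the cytokine-free groups at 48 and 72 h thus understate the spread of those groups. In courses 4 to 6 the same deviation of the cocktail libraries was 0.119 to 0.165 at 24 h. It was 0.156 to 0.301 at 48 h and 0.175 to 0.34 at 72 h. SE and p-values that rest on cocktails at 48 and 72 h can thus understate their spread as well.

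Per kilobase of exon, the cytosolic messages outweighed the mitochondrial ones, with Lars2 as the exception. In naive cells the 20 cytosolic members lay between 14.5 (Cars) and 54.6 CPM per kb (Vars), median 28.9, and the 15 mitochondrial members other than Lars2 between 2.76 (Nars2) and 21.99 CPM per kb (Tars2), median 10.1. After 4 h without cytokines the cytosolic median was 124 CPM per kb, with Nars highest at 343, and the mitochondrial median without Lars2 was 9.71. After 24 h the medians were 71.8 (cytosolic) and 10.8 CPM per kb (mitochondrial without Lars2). Lars2, the mitochondrial leucyl enzyme, was at 608 CPM per kb in naive cells, 395 after 4 h and 308 after 24 h. Its transcripts share a stretch of 72 bases at 98.6% identity with Gm15564. They share stretches with other genes too, the longest 121 bases at 90.1% identity with Ankrd44. Whether these stretches bear on the level of Lars2 was not tested. Exon lengths are from GENCODE M21, which is of another build than the files.

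Within 4 h of stimulation without cytokines nearly all cytosolic synthetase messages rose, while the mitochondrial class split. At 2 h, 17 of the 20 cytosolic members rose, Qars fell and Dars and Vars did not pass the test (log2 range -0.28 to 2.49, median 1.11), while 3 of the 16 mitochondrial members rose and 11 fell (median -0.52). Of the 14695 genes tested, 32.4% were called higher and 36.7% lower. The median over them was -0.04. At 4 h, a time tested after the levels were seen to peak there, 19 cytosolic members rose and 1 fell (median 1.98). Of the mitochondrial ones, 7 rose and 9 fell (median -0.27). The background over 14695 genes was 34.8% called higher and 38% lower. Among the T cell markers Cd3e, Cd4 and Lck also changed at 4 h, by -1.43, -1.80 and -1.04 on the log2 scale, and their part in these shares of RNA was not tested. At 6 h the cytosolic counts were the same, 19 and 1 (median 1.61), and of the mitochondrial ones 7 were higher and 5 lower (median -0.09). In this comparison 35% of 14695 genes were called higher and 37.4% lower. At 24 h all 20 cytosolic members were higher than in naive cells (median 1.34), with 8 mitochondrial members higher and 3 lower (median 0.24). Over all 14695 genes tested, 35.9% were called higher and 36.8% lower. By 72 h 15 cytosolic members were still higher and 5 did not pass the test (median 0.53), and 5 mitochondrial members were higher and 6 lower (median -0.25). Of the 14695 genes tested, 33.2% were called higher and 32.2% lower. Without course 1 the counts at 72 h were 13 cytosolic members higher and 1 lower (Farsa, at -0.31; median 0.38), and 3 mitochondrial members higher and 7 lower (median -0.24). In a fit of only the libraries compared, 14 cytosolic members were higher and 0 lower at 72 h, and 3 mitochondrial members higher and 3 lower. Over all genes, 4459 of 14278 were called higher and 4328 lower without course 1. In the fit of only the libraries compared these were 3414 and 2880 of 12342. On the deposited CPM with no TMM scaling the median of all genes at 2 h was -0.22 in place of -0.04. Higher calls then made up 36.2% of all calls rather than 46.9%, and the members split 16 higher and 3 lower (cytosolic) and 2 higher and 12 lower (mitochondrial).

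**Figure D1:**
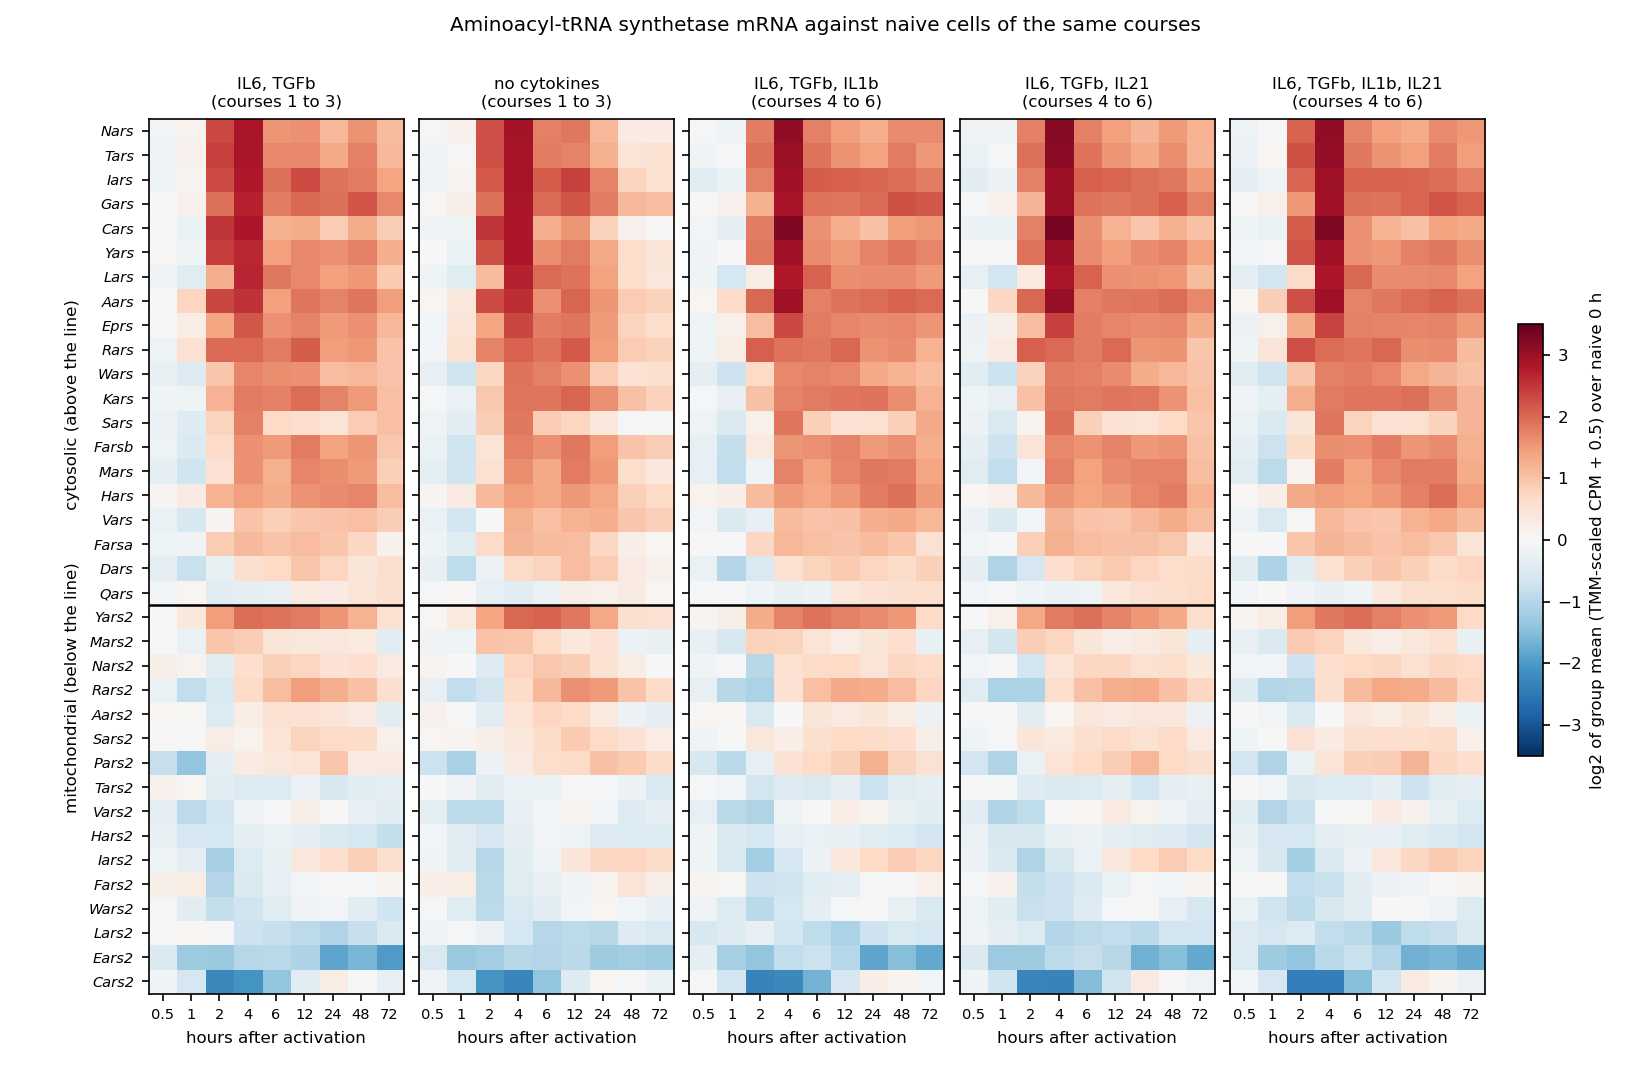
Mean level of each synthetase message in each culture as log2 of (TMM-scaled CPM + 0.5) over naive cells of the same courses, by hours after activation (3 libraries a group; cytosolic members above the line, mitochondrial below, ordered by their change at 4 h without cytokines). The cytosolic rows darken at 2 h and are darkest at 4 h for most members, Qars stays pale, and the rows of Cars2 and Ears2 turn to a deep blue.

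The 7 largest changes at 2 h were those of Cars, Aars, Nars, Tars, Yars, Iars and Gars. At 4 h Lars, at 2.69 ± 0.10 SE, stood above Aars, at 2.60 ± 0.10 SE. Nars, the asparaginyl enzyme, was at 123, 139 and 132 CPM in naive cells, at 527, 676 and 688 CPM after 2 h and at 1066, 937 and 1006 CPM after 4 h. Tars, the threonyl enzyme, had 588, 533 and 550.1 CPM after 4 h against 68.2, 81.4 and 74.7 CPM in naive cells. Every library of both genes at 4 h stood far above every naive library, with log2 changes of 2.92 ± 0.12 SE (adjusted p = 3.44e-24) and 2.89 ± 0.12 SE (adjusted p = 1.3e-23). Cars (cysteinyl) had 235, 306 and 309 CPM at 2 h against 50.2, 52.2 and 47.01 CPM in naive cells, the largest change of the 20 at that time, 2.49 ± 0.11 SE (adjusted p = 2.39e-22). At 72 h Cars stood at 48.6, 50.1 and 55.1 CPM, 0.04 ± 0.11 SE against naive cells, and was not called. Aars (alanyl) had 484, 611 and 579 CPM at 2 h against 102, 131 and 111 CPM in naive cells, a change of 2.28 ± 0.10 SE (adjusted p = 2.69e-23). Neither gene's libraries at 2 h overlapped with its naive ones. Yars (tyrosyl) changed by 2.23 ± 0.11 SE at 2 h and 2.81 ± 0.11 SE at 4 h.

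Members of the multi-synthetase complex rose at 4 h in 7 of 8 cases and those outside it in 12 of 12, with median changes of 1.97 and 2.25; the member that fell was Qars. Over all genes tested at 4 h, 34.8% were called higher and 38% lower. Iars, the isoleucyl enzyme of the complex, was at 103, 109.9 and 107 CPM in naive cells, at 836, 759 and 768 CPM after 4 h, 494, 419 and 471 CPM after 6 h and 317, 404 and 348 CPM after 24 h. Lars, the leucyl enzyme, followed at 364, 298 and 328 CPM after 6 h against 81.8, 81.01 and 84.9 CPM in naive cells, a change of 1.99 ± 0.10 SE (adjusted p = 7.38e-21). Both were above naive in every library. Gars, outside the complex, was still the most raised of the class at 72 h, at 410.5, 350 and 402 CPM after 6 h, 319, 366 and 345 CPM after 24 h and 226, 188 and 210.3 CPM after 72 h, against 96.2, 104 and 93.2 CPM in naive cells, with changes of 1.98 ± 0.10, 1.80 ± 0.10 and 1.08 ± 0.10 SE. Kars, in the complex, was at 306, 366 and 351 CPM after 24 h against 103, 116 and 117 CPM in naive cells, 1.60 ± 0.09 SE (adjusted p = 2.31e-19). Members were also grouped by the structural class of the catalytic domain, with Eprs, which carries a pair of activities, counted in class I only. Class I enzymes split 9 higher and 1 lower at 4 h (median 2.20) and class II enzymes 10 higher and 0 lower (median 1.85).

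Other cytosolic members moved later or less. The aspartyl enzyme Dars and the valyl enzyme Vars did not pass the test at 2 h, at -0.22 ± 0.11 and 0.02 ± 0.09 SE, and both rose at 4 h, by 0.66 ± 0.11 and 1.25 ± 0.09 SE. Vars had 337, 481 and 484 CPM at 72 h against 244, 256 and 224 CPM in naive cells, 0.83 ± 0.09 SE (adjusted p = 1.29e-10). Farsb, the beta subunit of the phenylalanyl enzyme, had 126, 76.5 and 82.4 CPM at 72 h against 49.7, 51.6 and 55.4 CPM in naive cells, 0.82 ± 0.15 SE (adjusted p = 8.25e-06). Both were still well above naive, with no overlap. At 4 h the rest of the class, which is Eprs, the alpha subunit gene Farsa, Hars (histidyl), Mars (methionyl), Rars (arginyl), Sars (seryl) and Wars (tryptophanyl), changed by 1.20 (Farsa) to 2.33 (Eprs). In group means, 12 of the 20 cytosolic members peaked at 4 h, 6 at 12 h, 1 at 24 h and 1 at 48 h, and 16 of the 20 were lowest at 0.5 or 1 h.

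Qars, the glutaminyl enzyme, ran against its class. Its libraries were at 152, 151 and 150.2 CPM in naive cells, at 131, 112 and 129 CPM after 2 h, 119, 119 and 114 CPM after 4 h, 136, 129 and 122 CPM after 6 h and 153, 172 and 185 CPM after 24 h. Every library from 2 to 6 h was below every naive one, with log2 changes of -0.28 ± 0.07 SE (adjusted p = 0.000434) at 2 h, -0.36 ± 0.07 SE (adjusted p = 1.44e-05) at 4 h and -0.23 ± 0.07 SE (adjusted p = 0.00367) at 6 h, and those at 24 h were above. Without course 2 the falls at 2 and 6 h no longer passed the test, nor did the rise at 24 h without course 2 or course 3. With no filter on low values the lower calls were lost at all 3 times, with changes of -0.10 at 2 h (adjusted p = 0.353), -0.15 at 4 h (adjusted p = 0.102) and -0.00 at 6 h. Qars itself was far above that filter, and without it the TMM factors also came from the unfiltered genes. The class medians at 4 h were then 2.19 (cytosolic) and -0.06 (mitochondrial), both higher than with the filter. The part of the scaling in the lost calls was not tested.

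**Figure D2:**
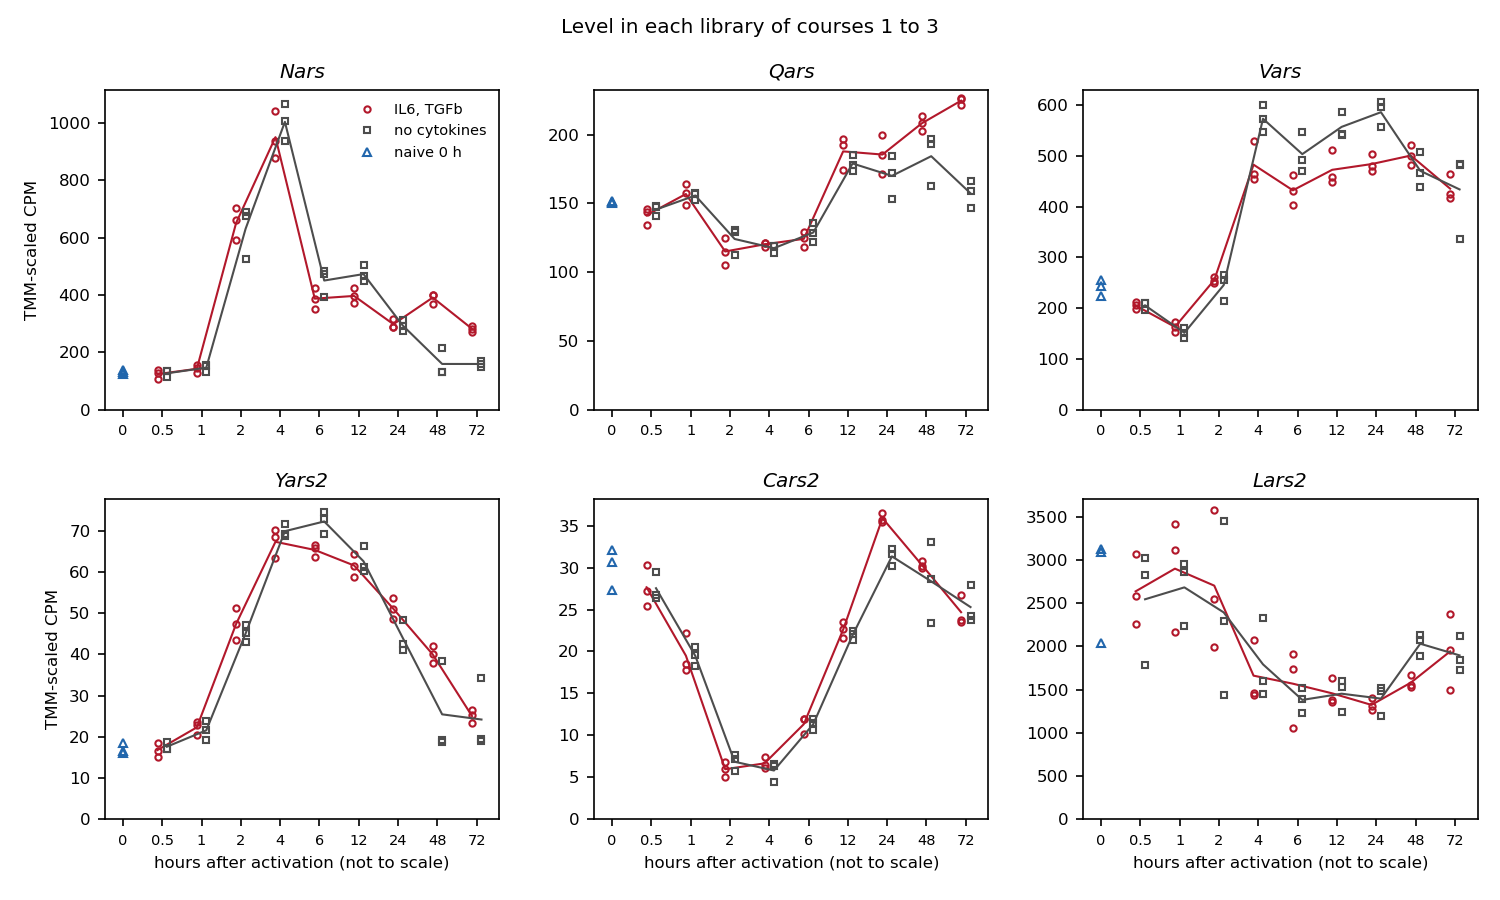
TMM-scaled CPM of 6 members in every library of courses 1 to 3 by hours after activation (circles, IL6 and TGFb; squares, no cytokines; triangles, naive 0 h; lines join group means; the time axis is not to scale). Nars peaks at 4 h and lies above the cytokine-free libraries at 48 and 72 h where IL6 and TGFb were present, Qars dips and then climbs, Cars2 is lowest at 2 and 4 h, and Lars2 libraries scatter widely.

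Among the mitochondrial enzymes, Yars2 and Mars2 rose within 2 h. Yars2, the tyrosyl form, was at 16.4, 18.5 and 16.2 CPM in naive cells, 47.1, 45.1 and 43.1 CPM after 2 h, 68.9, 71.8 and 69.2 CPM after 4 h, 74.7, 72.98 and 69.3 CPM after 6 h and 41, 48.4 and 42.6 CPM after 24 h. Mars2, the methionyl form, was at 38.5, 37.5 and 41.01 CPM in naive cells, 74.3, 76.4 and 84.2 CPM after 2 h and 77.8, 73.9 and 77.1 CPM after 4 h. All of these libraries were above all naive ones, with changes at 2 h of 1.38 ± 0.15 SE (adjusted p = 8.42e-11) for Yars2 and 0.99 ± 0.12 SE (adjusted p = 1.65e-09) for Mars2. Yars2 was further up at 4 h, at 2.01 ± 0.15 SE (adjusted p = 9.93e-16). Sars2, the seryl form, moved little, with 20.8, 25.2 and 22.8 CPM at 2 h against 20.02, 19.6 and 19.6 CPM in naive cells, 0.21 ± 0.07 SE (adjusted p = 0.00832); that call was lost without course 2 or course 3, and with no TMM scaling the change was -0.03.

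The largest falls were those of Cars2 and Ears2. Cars2, the cysteinyl form, was at 30.7, 27.3 and 32.1 CPM in naive cells, 7.19, 5.72 and 7.59 CPM after 2 h, 6.32, 6.59 and 4.44 CPM after 4 h and 11.99, 11.4 and 10.6 CPM after 6 h, and was back at 32.2, 31.6 and 30.2 CPM after 24 h. Its changes were -2.06 ± 0.12 SE (adjusted p = 1.85e-19), -2.29 ± 0.12 SE (adjusted p = 2.41e-21) and -1.37 ± 0.12 SE (adjusted p = 4.06e-14) at 2, 4 and 6 h, while its cytosolic partner Cars rose. Ears2, the glutamyl form, was at 37.8, 37.6 and 42.1 CPM in naive cells, 15.2, 16.4 and 17.6 CPM after 2 h, 18.3, 18.7 and 22.5 CPM after 4 h, 19.1, 18.2 and 20.1 CPM after 6 h, 17.5, 15.3 and 16.4 CPM after 24 h and 20.5, 13.2 and 14.9 CPM after 72 h. At all 5 of these times it stayed below every naive library, with a change of -1.27 ± 0.14 SE (adjusted p = 1.4e-10) at 72 h. Iars2, the isoleucyl form, was lower early and higher late: it was at 87.6, 87.1 and 79.3 CPM in naive cells, 44.3, 41.9 and 40.6 CPM after 2 h and 154, 115 and 126 CPM after 72 h, -0.99 ± 0.08 and 0.62 ± 0.08 SE. Wars2, the tryptophanyl form, was at 11.5, 10.6 and 8.46 CPM after 4 h against 16.6, 14.6 and 13.98 CPM in naive cells, -0.55 ± 0.10 SE (adjusted p = 4.15e-06).

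A further group rose only after a dip or delay. Rars2, the arginyl form, was at 19.3, 19.7 and 17.4 CPM in naive cells, 11.1, 13.7 and 10.4 CPM after 2 h, 46.2, 38.4 and 40.8 CPM after 6 h, 46.5, 60.6 and 54.6 CPM after 24 h and 42.4, 22.7 and 23.4 CPM after 72 h. Nars2, the asparaginyl form, was at 11.4, 10.5 and 12.3 CPM in naive cells, 22.4, 17.6 and 18.5 CPM after 4 h and 22.2, 24.1 and 20.4 CPM after 6 h. Pars2, the prolyl form, was at 9.73, 9.04 and 8.54 CPM in naive cells, 18.9, 18.1 and 20.1 CPM after 24 h and 14.2, 13.9 and 15.2 CPM after 72 h. Rars2 fell by 0.66 on the log2 scale at 2 h and was higher by 1.49 ± 0.14 SE at 24 h. Nars2 was higher by 0.93 ± 0.14 SE at 6 h and Pars2 by 1.02 ± 0.13 SE at 24 h. None overlapped with naive libraries at these times. The Rars2 call at 72 h (0.58 ± 0.14 SE) was lost without course 1, where its change was 0.30.

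Lars2, Hars2 and Tars2 were each called lower at several times, Lars2 at 4, 6 and 24 h, Hars2 at 2, 4, 24 and 72 h and Tars2 at 2, 4, 6 and 72 h. Lars2 had 1514, 1232 and 1393 CPM at 6 h and 1482, 1191 and 1513 CPM at 24 h, against 3128, 2045 and 3099 CPM in naive cells, with changes of -0.98 ± 0.24 SE (adjusted p = 0.00037) and -0.96 ± 0.24 SE (adjusted p = 0.000445). Hars2, the histidyl form, had 34.2, 37.9 and 35.96 CPM at 24 h and 38.7, 34.7 and 34.5 CPM at 72 h, against 47.95, 48.1 and 53.5 CPM in naive cells, -0.46 ± 0.08 and -0.47 ± 0.08 SE. Tars2, the threonyl form, had 91.8, 66.6 and 66.4 CPM at 72 h against 112, 101 and 112 CPM in naive cells, -0.54 ± 0.08 SE (adjusted p = 4.53e-08). None of these libraries overlapped with naive ones. Lars2 at 72 h overlapped with naive cells, -0.52 ± 0.24 SE (adjusted p = 0.0559), and Tars2 at 24 h stood at -0.05 ± 0.08 SE; neither was called. Of the remaining mitochondrial members, Aars2 (alanyl), Fars2 (phenylalanyl) and Vars2 (valyl) were each lower at 2 h, at -0.37 ± 0.11, -0.93 ± 0.14 and -0.91 ± 0.09 SE. At 24 h Aars2 was higher (0.35 ± 0.11 SE) while Fars2 and Vars2 did not pass the test. Further calls were lost when a course was left out. At 2 h those of Farsb and Aars2 were lost without course 2 and that of Nars2 without course 3. At 4 h those of Fars2 and Vars2 were lost without course 2, that of Lars2 without course 3 and those of Pars2 and Tars2 without course 2 or course 3. At 6 h that of Wars2 was lost without course 2 and that of Tars2 without course 3. At 72 h those of Mars, Nars, Wars2 and Yars2 were lost without course 1, of Aars2 and Wars2 without course 2 and of Mars, Nars, Aars2 and Wars2 without course 3.

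Courses 4 to 6 share no library with courses 1 to 3, and the step from naive cells to the mean of the 3 cocktails gave calls in the same direction. At 2 h, 16 cytosolic members were called higher and 2 lower (Dars and Qars; median 1.13), and 3 mitochondrial members higher and 13 lower (median -0.70). The background over 14859 genes was 35.7% called higher and 41.2% lower. At 4 h the counts were 19 and 1 (cytosolic, median 1.92) and 6 and 8 (mitochondrial, median -0.18). In this comparison 38.4% of 14859 genes were called higher and 40.6% lower. At 6 h they were 19 and 1 and 7 and 8. Over all 14859 genes tested, 38.8% were called higher and 40.3% lower. At 24 h they were 20 and 0 and 9 and 4. Of the 14859 genes tested, 42.2% were called higher and 40.7% lower. At 72 h they were 20 and 0 (median 1.28) and 6 and 8. The background over 14859 genes was 44.7% called higher and 39.9% lower. At 4 h all 20 cytosolic members and 14 of the 16 mitochondrial ones were called in the same direction in both sets of courses, and at no tested time was a member called in opposite directions. The share of all genes called alike in both sets was not computed, so this agreement cannot be read as particular to the members. On the deposited CPM with no TMM scaling, higher calls made up 34.6% of all calls at 2 h rather than 46.4%. The cytosolic split was then 14 higher and 4 lower, and Sars, called higher by 0.24 ± 0.08 SE, stood at -0.08.

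Some of the leading members were shared with courses 1 to 3, Nars and Tars at 4 h and Aars at 2 h. The 9 cocktail libraries of a time came from 3 courses and entered the fit singly. Its SE and p-values thus leave out the course that cocktails share. After 4 h Cars had 412 to 483 CPM (median 447) over the 9 cocktail libraries, against 52.3, 43.3 and 41.2 CPM in the naive cells of these courses, 3.28 ± 0.10 SE (adjusted p = 7.54e-39). Nars had 975 to 1138 CPM (median 1037) against 124, 134 and 105 CPM in naive cells, 3.13 ± 0.09 SE. Tars had 575 to 646 CPM (median 605) against 72.4, 78.3 and 64.7 CPM in naive cells, 3.09 ± 0.08 SE. All 3 stood far above their naive libraries. At 2 h the first was Rars, which ranked 8 in courses 1 to 3 at 1.75 ± 0.10 SE, and was here at 227 to 289 CPM (median 271) against 58.4, 62.6 and 54.8 CPM in naive cells, 2.15 ± 0.07 SE. Aars was at 364 to 537 CPM (median 394) against 113, 97 and 86.3 CPM in naive cells, and Tars at 232 to 394 CPM (median 280). Dars was lower, at 60.98 to 84.4 CPM (median 73.6) against 105, 112 and 87.5 CPM in naive cells, -0.49 ± 0.08 SE (adjusted p = 5.81e-08). Qars at 4 h was at 115 to 126 CPM (median 122) against 150.1, 149 and 132 CPM in naive cells, -0.25 ± 0.05 SE (adjusted p = 6.73e-06), and at 2 and 6 h its libraries overlapped with the naive ones. At 6 h Iars, Lars and Gars were at 379.6 to 450.2 CPM (median 422), 278 to 337 CPM (median 313) and 307 to 359 CPM (median 353), against 103, 103 and 87.8 CPM, 75.4, 80.04 and 67.5 CPM and 93.8, 92.9 and 84.1 CPM in naive cells. These stood clear of naive cells in every library.

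With cytokines present throughout, the cytosolic messages were still high at the end. At 72 h Gars had 253 to 445 CPM (median 369) in the cocktails against 93.8, 92.9 and 84.1 CPM in naive cells, 2.00 ± 0.09 SE. Aars had 259 to 411 CPM (median 363) against 113, 97 and 86.3 CPM in naive cells, 1.87 ± 0.09 SE. Iars had 234 to 367 CPM (median 318) against 103, 103 and 87.8 CPM in naive cells, 1.69 ± 0.09 SE. No cocktail library of these 3 genes overlapped with naive ones. At 24 h the same 3 genes had 338 to 384 CPM (median 358), 360.3 to 404 CPM (median 378) and 358 to 441 CPM (median 394). The summed level of the 20 cytosolic members at 72 h averaged 5085, 4232 and 4841 CPM in the IL1b, the IL21 and the combined cocktail, and 1911 ± 185 CPM (SD, n = 3) in naive cells.

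The mitochondrial members with the largest changes were largely those of courses 1 to 3. Yars2 at 2, 4, 6 and 24 h had 36.2 to 48.6 CPM (median 41.01), 47.95 to 64.6 CPM (median 56.7), 58.5 to 64.6 CPM (median 60.7) and 45.3 to 51.6 CPM (median 48.1) in the cocktails, against 17.1, 15.3 and 14.9 CPM in naive cells. Cars2 at 2, 4 and 6 h had 4.43 to 6.77 CPM (median 5.17), 4.24 to 6.25 CPM (median 5.57) and 7.56 to 10.8 CPM (median 9.62), against 31.8, 27.5 and 27.1 CPM in naive cells, with a change of -2.34 ± 0.10 SE (adjusted p = 4.99e-31) at 4 h. Ears2 at 2, 4, 6, 24 and 72 h had 12.1 to 15.9 CPM (median 13.9), 17.3 to 21.4 CPM (median 19.1), 18.4 to 22.8 CPM (median 20.3), 8.87 to 11.3 CPM (median 10.6) and 8.96 to 11.1 CPM (median 10.2), against 38.4, 36.05 and 32.5 CPM in naive cells, with a change of -1.78 ± 0.08 SE (adjusted p = 1.34e-31) at 72 h. So the tyrosyl form was high, and the cysteinyl and glutamyl forms low, in every cocktail library of those times. Lars2 was also below every naive library, with 1232 to 2008 CPM (median 1620), 1325 to 1971 CPM (median 1583), 1460 to 1954 CPM (median 1648) and 1469 to 2367 CPM (median 2067) at 4, 6, 24 and 72 h, against 2650, 3414 and 2937 CPM in naive cells. Tars2 at 24 h had 65.1 to 77.02 CPM (median 68.97) against 125, 105 and 106 CPM in naive cells, and Hars2 at 72 h had 27.8 to 33.96 CPM (median 31.3) against 49.6, 50.6 and 46.6 CPM in naive cells, both without overlap.

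Other mitochondrial forms rose in the cocktails. Rars2 at 4, 6, 24 and 72 h had 22.5 to 27.2 CPM (median 25.9), 34.2 to 39.4 CPM (median 36.2), 42.05 to 44.1 CPM (median 42.99) and 26.2 to 30.7 CPM (median 29.6), against 16.3, 20.3 and 15.01 CPM in naive cells. Pars2 at 6 and 24 h had 10.7 to 13.9 CPM (median 13.5) and 16.3 to 19.3 CPM (median 18.1), against 7.63, 8.23 and 6.52 CPM in naive cells. Both were above naive in every library. Iars2 was again lower at 2 h, 30.98 to 40.5 CPM (median 33.8), and higher at 72 h, 116 to 139.7 CPM (median 129), than the 77.99, 79.3 and 72.9 CPM of naive cells. Mars2 at 2 and 4 h had 59.8 to 75.7 CPM (median 72.9) and 61 to 70.8 CPM (median 67.3) against 35.1, 38.7 and 41.9 CPM in naive cells, and Sars2 at 2 h had 25.2 to 30.8 CPM (median 27.3) against 20.7, 20.5 and 19.9 CPM in naive cells. The early rise of Mars2, which was still above naive in every library at 4 h, was larger than that of Sars2, whose call at 2 h was lost with no TMM scaling. Yars2 was still higher at 72 h, at 19.7 to 29.4 CPM (median 27.5). Some calls were lost when a course was left out. At 2 h that of Sars was lost without course 4 or course 6, that of Qars without course 4 and those of Lars2 and Pars2 without course 5. Later ones were lost too, that of Cars2 at 24 h without course 5 or course 6, that of Lars2 at 72 h without course 5 and that of Mars2 at 72 h without course 6.

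The promoters of the members were then read for a pair of motifs. A window of 300 bases around each gene start (250 before to 50 after, RefSeq, GRCm38.p6) was found for 13 cytosolic and 14 mitochondrial members; none was in the table for Cars, Hars, Lars, Nars, Rars, Vars, Wars, Hars2 and Pars2. The letters TGATGNAA, the core of the C/EBP-ATF element, were searched on both strands and stood in 5 of 13 cytosolic windows (Aars, with a pair of matches, Gars, Iars, Tars and Yars), in 0 of 14 mitochondrial windows, and in 3.97% of all 32851 promoters. They also stood in the windows of Asns, Chac1 and Trib3, 3 of the 8 listed genes of the amino acid response. The E-box CACGTG, also read on both strands, stood in 4 cytosolic windows (Aars, Farsb, Iars and Tars), in that of Ears2, and in 7.15% of all promoters. No match of one motif overlapped with one of the other in these members. Aars, Iars and Tars thus held both motifs. The stretches that hold the first motif are shown because they mark the members with the steepest rise at 2 and 4 h among those with a window. Each is 80 bases, 5′ to 3′ on the strand of the gene, with the match in capitals.

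Aars, upstream match (chr8:111033694-111033773, plus strand): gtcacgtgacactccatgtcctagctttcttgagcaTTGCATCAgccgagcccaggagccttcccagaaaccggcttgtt
Aars, match at the start (chr8:111033792-111033871, plus strand): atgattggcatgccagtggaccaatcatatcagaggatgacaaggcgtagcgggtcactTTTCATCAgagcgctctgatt
Gars (chr6:55037935-55038014, plus strand): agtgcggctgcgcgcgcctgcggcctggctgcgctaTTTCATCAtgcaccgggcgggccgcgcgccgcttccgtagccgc
Iars (chr13:49682080-49682159, plus strand): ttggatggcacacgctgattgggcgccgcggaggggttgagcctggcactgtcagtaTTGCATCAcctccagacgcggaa
Tars (chr15:11399630-11399709, minus strand): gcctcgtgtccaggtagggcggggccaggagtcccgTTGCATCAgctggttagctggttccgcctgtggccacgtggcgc
Yars (chr4:129189853-129189932, plus strand): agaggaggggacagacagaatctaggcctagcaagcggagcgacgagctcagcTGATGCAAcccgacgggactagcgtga

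At 4 h without cytokines the 5 members with the motif changed by 2.60 (Aars) to 2.89 (Tars) on the log2 scale, and the 8 without it by -0.36 (Qars) to 2.33 (Eprs). In the cocktails of the other courses the ranges at 4 h were 2.94 (Gars) to 3.09 (Tars) and -0.25 (Qars) to 2.36 (Eprs). At 2 h without cytokines they were 1.93 (Gars) to 2.28 (Aars) and -0.28 (Qars) to 1.38 (Eprs). The ranges did not meet at these times, but they did at 24 h, at 1.24 (Tars) to 1.80 (Gars) and 0.17 (Qars) to 1.60 (Kars). The 7 members with no window in the table changed by 1.25 (Vars) to 2.92 (Nars) at 4 h. The match is a description of letters in these windows, and binding was not measured. Changes were not split by the E-box.

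**Figure D3:**
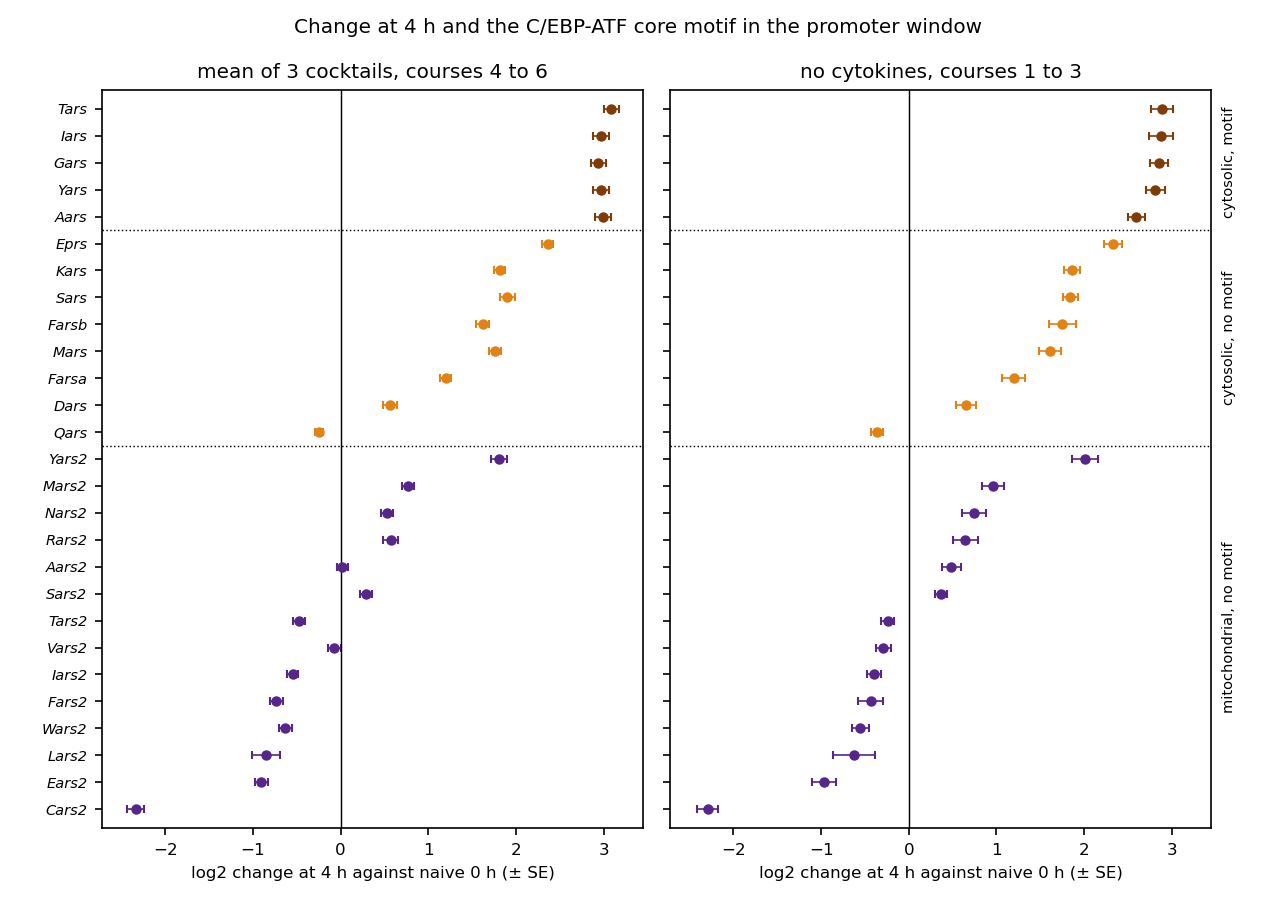
Log2 change at 4 h against naive cells (points, fitted mean; bars, SE) for the 27 members with a promoter window, in the mean of 3 cocktails (left) and without cytokines (right), grouped by class and by the C/EBP-ATF core motif in the window. The 5 cytosolic members with the motif lie to the right of the 8 without it in both panels.

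IL6 and TGFb, which start the Th17 program, gave 1 call among the 36 members at 2 h and 5 at 24 h. At 2 h it was Kars, higher with the cytokines. In this comparison 5.59% of 14695 genes were called higher and 6.84% lower. The Kars libraries had 280.1, 269 and 235 CPM with IL6 and TGFb against 220.2, 214 and 212 CPM without, 0.28 ± 0.09 SE (adjusted p = 0.0407), and the call was lost without course 2 or course 3. At 24 h Hars and Yars were called higher and Vars, Ears2 and Tars2 lower. Over all 14695 genes tested, 13.5% were called higher and 12.6% lower. Hars had 169, 177 and 182 CPM with IL6 and TGFb against 133, 154 and 142 CPM without, 0.30 ± 0.09 SE (adjusted p = 0.00653). Yars had 160.3, 154 and 162 CPM with the cytokines against 128, 137 and 126 CPM without, 0.29 ± 0.11 SE. Vars had 479, 469.8 and 503 CPM with the cytokines against 596, 556 and 607 CPM without, -0.28 ± 0.09 SE (adjusted p = 0.0208). The groups did not overlap for any of these 3 genes, but without course 2 or course 3 none of them passed the test, nor did Yars without course 1 or with no TMM scaling. Ears2 had 9.85, 11.04 and 10.8 CPM with IL6 and TGFb against 17.5, 15.3 and 16.4 CPM without, -0.61 ± 0.14 SE (adjusted p = 0.00072). Tars2 had 72.8, 74.9 and 72.8 CPM with the cytokines against 104, 106 and 102 CPM without, -0.50 ± 0.08 SE (adjusted p = 1.09e-06). These passed whichever course was left out.

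By 48 h most cytosolic members were higher with IL6 and TGFb than without. The summed level of the 20 members was 5460 ± 138 CPM with IL6 and TGFb and 3241 ± 527 CPM without (SD, n = 3 each), and at 72 h it was 4202 ± 109 CPM with and 2984 ± 252 CPM without. At 48 h, a time added after the levels were seen, 18 of 20 cytosolic members were higher with IL6 and TGFb and 0 lower (median 0.89), against 4 higher and 5 lower of the 16 mitochondrial members (median 0.07). Of the 14695 genes tested, 27.6% were called higher and 25.4% lower. At 72 h 16 cytosolic members were higher and 0 lower (median 0.51), against 2 and 4 mitochondrial ones (median -0.07). The background over 14695 genes was 22.7% called higher and 23.6% lower. The cytosolic counts at 48 and 72 h were 18 and 19 without course 1. They were 15 and 11 with course 2 left out, and 15 and 13 with course 3 left out. In a fit of only the libraries compared, which does not borrow the spread of the other groups, they were 15 and 13 with 0 lower. Higher calls over all genes moved as well. At 48 and 72 h they numbered 4052 and 3331 of 14695 with every course and 4533 and 4444 of 14278 without course 1. Without course 2 they were 2491 and 2099 of 14339, and without course 3 they were 3034 and 2552 of 14340. In the fit of only the libraries compared they were 2345 of 12093 at 48 h and 1760 of 12237 at 72 h. Without course 1 the mitochondrial counts were 5 higher and 3 lower at 48 h (median 0.06) and 5 higher and 3 lower at 72 h (median 0.02). Mitochondrial members lower at 48 h numbered 1 and 3 with course 2 or 3 left out. On the deposited CPM with no TMM scaling the median of all genes was -0.15 in place of -0.03 at 48 h and -0.13 in place of -0.05 at 72 h. Higher calls made up 38.0% and 38.6% of all calls rather than 52.0% and 49.0%, and 17 and 15 cytosolic members were higher with none lower. Marker sums also differed between these groups. At 48 h the CD4 T cell markers summed to 1575 ± 61.6 CPM with IL6 and TGFb against 2058 ± 157 CPM without (SD, n = 3 each), the CD8 T cell markers to 3.51 against 13.96 CPM, the B cell markers to 1.12 against 3.38 CPM and the myeloid markers to 3.86 against 5.48 CPM. At 72 h the CD4 T cell markers summed to 2052 ± 72.0 CPM with the cytokines against 2519 ± 80.9 CPM without, and the CD8 T cell markers to 5.49 against 11.7 CPM. Their part in the result was not tested.

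Tars led at 48 h, with 254, 262 and 248 CPM with IL6 and TGFb against 145, 92.2 and 74.5 CPM without, 1.35 ± 0.12 SE (adjusted p = 2.96e-12). Nars had 401, 401 and 369.8 CPM with the cytokines against 215, 132 and 132 CPM without, 1.33 ± 0.12 SE (adjusted p = 1.9e-12). Yars had 179, 182 and 171 CPM with the cytokines against 97.2, 74.5 and 67.7 CPM without, 1.16 ± 0.11 SE (adjusted p = 1.78e-12). In each of these the course 1 library was the highest of the cytokine-free group and was still below every library with cytokines. At 72 h the seryl enzyme Sars led, with 313, 331 and 300.1 CPM with IL6 and TGFb against 141, 151 and 155 CPM without, 1.07 ± 0.09 SE (adjusted p = 2.84e-14). Iars had 266, 292 and 272 CPM with the cytokines against 200.4, 132 and 133 CPM without, 0.86 ± 0.13 SE (adjusted p = 9.03e-07). Cars had 90.8, 94.3 and 88.2 CPM with the cytokines against 48.6, 50.1 and 55.1 CPM without, 0.82 ± 0.11 SE (adjusted p = 7.52e-08). No library overlapped. Vars showed the least difference of the class, 0.09 ± 0.09 SE at 48 h and 0.02 ± 0.09 SE at 72 h, neither called. Farsa, Farsb and Rars were called at 48 h but not at 72 h, where they stood at 0.15 ± 0.13, 0.13 ± 0.15 and 0.17 ± 0.10 SE. Qars was also higher at 72 h, with 226, 226 and 222 CPM with the cytokines against 166, 147 and 159 CPM without, 0.52 ± 0.07 SE (adjusted p = 6.06e-08).

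**Figure D4:**
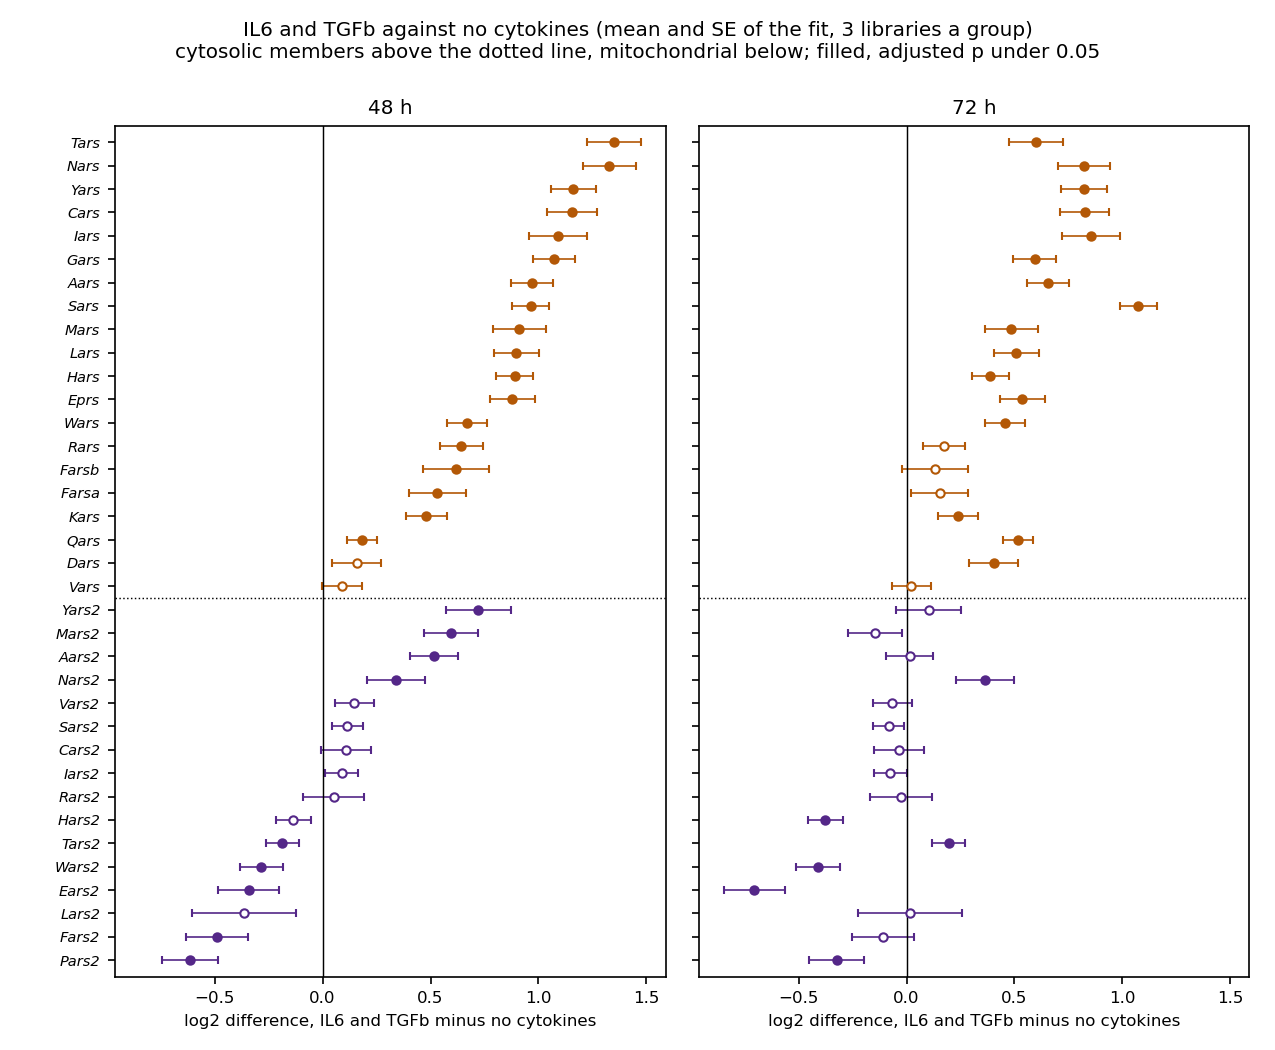
Log2 difference between cells with IL6 and TGFb and cells with no cytokines at 48 h (left) and 72 h (right) for the 36 members (points, fitted mean; bars, SE; filled points, adjusted p under 0.05; 3 libraries a group). All cytosolic points lie right of 0 at both times, with 18 of 20 filled at 48 h and 16 at 72 h, while mitochondrial points lie on both sides.

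The mitochondrial members had no common direction under IL6 and TGFb. Pars2 had 11.2, 11.7 and 11 CPM at 48 h with the cytokines against 14.6, 19.5 and 18.8 CPM without, -0.61 ± 0.13 SE (adjusted p = 9.81e-05). Fars2 had 11.7, 12.4 and 11.97 CPM with the cytokines against 14.6, 20.3 and 16.8 CPM without, -0.49 ± 0.14 SE (adjusted p = 0.00388). Wars2 had 10.3, 12.7 and 11.8 CPM with the cytokines against 14, 14.4 and 14.2 CPM without, -0.28 ± 0.10 SE (adjusted p = 0.0154). These 3 were lower with cytokines in every library than without, though Wars2 lost its call whichever course was left out and Fars2 without course 2. Aars2 was higher, with 32.2, 33.2 and 30.8 CPM with IL6 and TGFb against 24.9, 21.6 and 20.5 CPM without, 0.52 ± 0.11 SE (adjusted p = 0.000126). At 72 h Ears2 had 10.3, 9.35 and 9.10 CPM with the cytokines against 20.5, 13.2 and 14.9 CPM without, -0.71 ± 0.14 SE (adjusted p = 5.57e-05). Wars2 had 9.36, 9.07 and 9.04 CPM with the cytokines against 12.8, 12.7 and 11.5 CPM without, -0.41 ± 0.10 SE (adjusted p = 0.000757). Hars2 had 28.1, 27.4 and 27.2 CPM with the cytokines against 38.7, 34.7 and 34.5 CPM without, -0.38 ± 0.08 SE (adjusted p = 0.000179). Again the groups did not overlap. The call of Wars2 at 72 h was lost without course 2, that of Pars2, also lower, whichever course was left out, and those of Nars2 and Tars2, both higher, without course 2 or course 3. Without course 2 the counts over all 36 members at 72 h were 11 higher and 2 lower, against 18 and 4 with every course. Those over all genes were 2099 higher and 1770 lower of 14339, against 3331 and 3469 of 14695 with every course. Cytosolic calls lost were those of Dars, Kars and Mars without course 2 or course 3 and of Hars and Tars without course 2 at 72 h. Of the further mitochondrial calls at 48 h, that of Ears2 (lower) was lost without course 1 or course 2, those of Tars2 (lower), Nars2 and Yars2 (higher) without course 2 or course 3, and that of Mars2 (higher) without course 3. Cytosolic calls lost at 48 h were those of Qars whichever course was left out and of Farsa and Farsb without course 2 or course 3.

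Whether the cytokine effect itself changed between 24 and 72 h was tested as a difference of differences. It was more positive at 72 h for 12 of 20 cytosolic members and more negative for 0 (median 0.46). Among the mitochondrial members it was more positive for Tars2 and more negative for Hars2. In this comparison 12.6% of 14695 genes were called higher and 8.91% lower. The change was largest for Sars, 1.03 ± 0.12 SE (adjusted p = 7.48e-09). At 24 h its libraries had 204, 197 and 219 CPM with IL6 and TGFb against 195, 201 and 206 CPM without. Nars followed at 0.80 ± 0.17 SE (adjusted p = 0.000447) and Cars at 0.75 ± 0.16 SE (adjusted p = 0.000433). At 24 h Nars had 288, 289.6 and 316 CPM with the cytokines against 275, 313 and 291 CPM without, and Cars had 89.4, 93.1 and 94.1 CPM with the cytokines against 87.2, 89.5 and 86.3 CPM without. None of the 3 was called at 24 h. At 72 h Nars had 271, 292 and 283 CPM with the cytokines against 170.4, 149 and 159 CPM without, and the groups did not overlap for any of the 3. Tars2, lower with cytokines at 24 h, had 89.7, 81.2 and 83.8 CPM at 72 h with them against 91.8, 66.6 and 66.4 CPM without, 0.70 ± 0.11 SE (adjusted p = 3.02e-06). Hars2 had 32.9, 36.1 and 36.5 CPM at 24 h with the cytokines against 34.2, 37.9 and 35.96 CPM without, where the groups overlapped, -0.34 ± 0.12 SE (adjusted p = 0.0273) for the difference to 72 h. The count moved with the courses, as did that over all genes tested. A more positive effect was called for 1858 of 14695 genes with every course and 3048 of 14278 without course 1. It was called for 902 of 14339 genes without course 2 and 989 of 14340 without course 3. Without course 1 the effect was more positive at 72 h for 22 members, against 13 with every course, for 3 (Cars, Sars and Tars2) without course 2 and for 4 (those and Nars) without course 3, and Hars2 lost its call whichever course was left out.

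Among the cocktails the differences were small. As a mean over 24, 48 and 72 h, 8 of 20 cytosolic members were higher with IL1b than with IL21 in the cocktail and 0 lower (median 0.16), and none of the 16 mitochondrial members was called. Over all 14859 genes tested, 4.55% were called higher and 6.88% lower. The 8 were Cars, Nars, Gars, Lars, Sars, Tars, Hars and Mars, at 0.16 (Mars) to 0.25 (Cars) on the log2 scale. Averaged over these times in each course, Cars had 107, 114 and 129 CPM in the IL1b cocktail against 85.02, 99.01 and 107 CPM in the IL21 cocktail, 0.25 ± 0.07 SE (adjusted p = 0.014). Nars had 323, 339 and 391 CPM in the IL1b cocktail against 261, 308 and 326 CPM in the IL21 cocktail, 0.23 ± 0.07 SE (adjusted p = 0.0114). Their courses overlap, but within every course the IL1b cocktail was higher. The courses pair these libraries, and with the course as a block in the fit 1 member, Tars2, was called lower and 10 higher. The count of 8 was 4 without course 4, 4 without course 5 and 0 without course 6. Higher calls over all genes numbered 676 of 14859 with every course and 481 of 14589 without course 4. They were 429 of 14621 without course 5 and 193 of 14577 without course 6.

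Adding IL1b to the IL21 cocktail gave 2 calls, Nars and Hars, both higher. Of the 14859 genes tested, 3.14% were called higher and 3.64% lower. Nars had 300.5, 363 and 364 CPM in the combined cocktail against 261, 308 and 326 CPM in the IL21 cocktail, 0.20 ± 0.07 SE (adjusted p = 0.048). Hars had 168, 188 and 184 CPM in the combined cocktail against 155, 164 and 167 CPM in the IL21 cocktail, 0.16 ± 0.04 SE (adjusted p = 0.00718). Within every course the combined cocktail was higher for both. The call of Nars was lost with edgeR, with no filter on low values, in a fit of only the libraries compared, and without course 4, 5 or 6. That of Hars was lost in the fit of only the libraries compared and without course 5 or course 6. With the course as a block 6 members were called higher (Gars, Hars, Lars, Nars, Tars and Nars2). Without course 4 the count was 5, and without course 5 or course 6 it was 0. Higher calls over all genes numbered 467 of 14859 with every course and 415 of 14589 without course 4. They were 198 of 14621 without course 5 and 159 of 14577 without course 6. Adding IL21 to the IL1b cocktail called 0 members in either direction by limma, edgeR and DESeq2, and 0% of the 14859 genes tested. Of these, 213 had an unadjusted p under 0.05 by limma, 280 by edgeR and 269 by DESeq2. The changes of the 36 members in that comparison ran from -0.11 to 0.06.

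Other genes of the pathway were listed to set the synthetases in context. The scaffold genes of the complex rose with their clients: at 4 h without cytokines Aimp1, Aimp2 and Eef1e1 were all higher, with Eef1e1 at 182, 159.7 and 158 CPM against 23.3, 23.1 and 23.04 CPM in naive cells, 2.82 ± 0.23 SE (adjusted p = 8.56e-15). Of the 5 cytosolic elongation factors 2 rose (Eef1d and Eef1g), 1 fell (Eef2) and 2 did not pass the test. Of the 6 mitochondrial initiation, elongation and recycling factors the elongation factors Tufm, Tsfm and Gfm1 rose, and Gfm2, a ribosome recycling factor, and Mtif3, an initiation factor, fell. Of the 4 genes for mitochondrial glutaminyl and formylmethionyl transfer RNA 2 rose, 1 fell and 1 did not pass, and of 6 charging partners 3 rose and 3 fell. At 4 h 34.8% of the 14695 genes tested were called higher and 38% lower. Whether the splits of these small sets differ from those shares was not tested.

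The 8 listed genes of the amino acid response are Atf4 itself and genes that ATF4 is known to activate. All 8 were higher at 2 h (median 2.40) and at 4 h (median 3.90) without cytokines, and 0 were called in either direction by IL6 and TGFb at 2 or 24 h. With IL6 and TGFb, 6 of 8 were higher at 48 h (median 1.10) and 6 at 72 h (median 1.11), namely Atf4, Asns, Chac1, Ddit3, Trib3 and Psat1. Over all genes tested, 32.4% were called higher at 2 h and 34.8% at 4 h without cytokines. By IL6 and TGFb, 5.59% were called higher at 2 h, 13.5% at 24 h, 27.6% at 48 h and 22.7% at 72 h. The lower calls were 36.7% and 38% without cytokines, and 6.84%, 12.6%, 25.4% and 23.6% by IL6 and TGFb. Asns, asparagine synthetase, had 124, 138 and 104 CPM at 48 h with the cytokines against 23.5, 9.32 and 12.2 CPM without, 3.08 ± 0.32 SE (adjusted p = 5.11e-11). Trib3, a pseudokinase induced by ATF4, had 41.5, 37.4 and 29.8 CPM with the cytokines against 2.42, 4.23 and 3.43 CPM without, 3.26 ± 0.32 SE (adjusted p = 1.03e-11). Atf4 had 389.7, 417 and 354 CPM with IL6 and TGFb against 278, 118 and 125 CPM without, 1.27 ± 0.19 SE (adjusted p = 3.28e-07). The groups did not overlap for any of the 3. Myc, a transcription factor that drives growth, had 504, 455 and 466 CPM at 48 h with IL6 and TGFb against 301, 135 and 162 CPM without, 1.33 ± 0.19 SE (adjusted p = 1.2e-07). A fit without course 1 was chosen for these genes after seeing the data. In it 7 of the 8 listed genes were higher at 48 h (median 1.44, with Asns at 3.48). At 72 h 7 were higher and 1 lower (Phgdh), with a median of 1.66 and Asns at 3.28. Myc was higher by 1.68 at 48 h and 1.37 at 72 h. Of the 14278 genes of that fit, 4533 were higher and 3949 lower at 48 h, and 4444 higher and 3808 lower at 72 h. The part of Myc, like that of Atf4, in the level of the synthetases was not tested.

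Several members lie where reads could be shared. In GENCODE M21 Hars and Hars2 overlap by 198 bases on opposite strands, Aars and Exosc6 by 1326 bases on the same strand, and Iars2 and Rab3gap2 by 2034 bases on opposite strands. A further 7 members overlap another protein-coding gene, by 30 (Yars) to 2315 bases (Farsb). Iars has a processed pseudogene, Gm4849, at 94.7% identity over 2251 bases. No cytosolic and mitochondrial partner shared 300 bases at 90% identity. The sources used here do not give the strand setting of the counting, so the levels of these genes carry that uncertainty.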

How the data were processed

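RNA sequencing of 141 libraries from 6 courses was analysed, 3 libraries in each of 47 groups set by the labels of culture, time and course. The deposited table holds CPM, reads per 1e+06 counted: every column sums to 1e+06, and 100% of the values were whole reads after rescaling (within 0.001 of a read). TopHat and HTSeq, and as builds mm9 and GRCh37, stand in the submitters' processing notes with no version or role. The sources used here do not give how multi-mapping reads and strand were counted. CPM is a share of counted RNA, so a rise of some messages lowers others.

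In R 4.3.3, limma 3.58.1 (trend) was fitted to log2(TMM-scaled CPM + 0.5), with TMM factors (0.787 to 1.182) from edgeR 4.0.16, for genes with at least 1 CPM in 3 libraries. One fit was made for each set of courses, with every group of the set, over 14695 genes with 38 residual degrees of freedom and 14859 genes with 56. A fold change on this scale understates that of low genes. P-values were adjusted by Benjamini-Hochberg over all genes of the fit, and calls are at adjusted values under 0.05. The members and gene lists were chosen with earlier results of these data known. The members described per library are, for each comparison and class, the 3 with the largest change in each direction among those called with no overlap of libraries; Qars at 72 h, Vars, Farsa, Farsb and Rars under IL6 and TGFb, Yars at 4 h and the genes outside the members were added after their values were seen. The means over 24 to 72 h had no such member and are shown by their leading calls.

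Alternatives were no TMM scaling, a pseudocount of 2, no filter, edgeR and DESeq2 1.42.0 on the recovered reads, only the libraries compared, each course left out and the course as a block. The course numbers paired the libraries, by the correlation of their deviations from the group means, for IL6 and TGFb at 2 h (0.405 to 0.507), the cocktails at 2 h (0.177 to 0.419) and at 4 h (0.224 to 0.536) and the 3 comparisons among cocktails (0.455 to 0.852). Scripts were tested on simulated data. Promoters were read from RefSeq (GRCm38.p6) and exon lengths and overlaps from GENCODE M21, and near copies were searched with blastn 2.17.0.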

Additional observations from a re-analysis of the deposited data

Results flagged for a closer look

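The effect of IL6 and TGFb differed between 24 and 72 h, by limma's test of the difference itself, for 14 of the 36 members. The cytosolic differences, 72 h minus 24 h on the log2 scale, were 1.03 for Sars, 0.80 for Nars, 0.75 for Cars, 0.70 for Iars, 0.56 for Dars, 0.54 for Yars, 0.51 for Eprs, 0.51 for Tars, 0.48 for Gars, 0.47 for Lars, 0.46 for Aars and 0.39 for Qars. Among the mitochondrial members the difference was 0.70 for Tars2 and -0.34 for Hars2. The calls of Cars, Sars and Tars2 remained whichever of courses 1 to 3 was left out, and that of Nars was lost without course 2.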

How the results depend on the processing

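Depth was at least 15.95 M reads (1e+06) a library, and 3 libraries a group limit which small differences can be resolved. Of the 648 member results, the call (higher, lower or not called) held for 645 with edgeR, 640 with DESeq2, 645 with a pseudocount of 2, 620 with no TMM scaling, 606 with no filter, 602 with only the libraries compared and 638 with the replicate block. For results called in neither fit the direction was not compared. With no TMM scaling Sars2 at 2 h without cytokines reversed to -0.033, and IL6 and TGFb called 1 member higher at 24 h. With no filter, members lower than naive numbered 3 at 4, 6 and 72 h without cytokines. No filter also gave 0 higher at 2 h and 2 lower at 48 h under IL6 and TGFb, 0 lower in the difference between 72 and 24 h, 3 higher with IL1b over IL21 and 1 higher with IL1b added; the cause was not tested. With only the libraries compared, 3 members were lower at 72 h without cytokines, IL6 and TGFb gave 7 higher and 6 lower at 24 h and 3 lower at 48 h, and IL1b added gave 0. DESeq2 called 2 higher under IL6 and TGFb at 2 h, and edgeR called 1 higher with IL1b added. The replicate block gave 1 lower with IL1b over IL21 and 6 higher with IL1b added, and did not move any other count of members by over 1.5 times. Leaving out each course in turn gave 0 to 1 higher under IL6 and TGFb at 2 h, 0 to 2 higher at 24 h, 1 to 3 lower at 48 h, and 11 to 24 higher and 2 to 3 lower at 72 h. It gave 3 to 22 higher and 0 lower in the difference between 72 and 24 h, 0 to 4 higher with IL1b over IL21 and 0 to 5 higher with IL1b added. Higher calls over all genes then ran from 2099 to 4444 under IL6 and TGFb at 72 h, and from 902 to 3048 in the difference.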
